A study of Homo sapiens with 6 samples.

Results

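The genes described here respond to, or make up, TGF-beta and BMP signalling: *ID1*, *ID2*, *ID3*, *SMAD6*, *SMAD7*, *TGFBI*, *TGFB1*, *TGFB2* and *THBS1*. They were taken by symbol from the deposited expression table, where they are 9 of 59074 genes listed, and all 9 were among the 14294 genes tested, that is, genes with a mean of 1 CPM (reads scaled to the depth of the library) or more. The established human glioblastoma lines LN-229, T98G and U251 were each transfected with a siControl siPOOL, a pool of siRNAs with no target, or with a siHOTAIRM1 siPOOL against the long non-coding RNA *HOTAIRM1*, which is transcribed within the HOXA cluster. RNA was taken 72 h after transfection, with 1 library per cell line and condition and 6 libraries in all, so the knock-down was transient, the 3 cell lines served as the replicates. The limma p-values rest on a spread that is mostly shared across genes (2 residual and 32.5 prior degrees of freedom). They do not rest on the spread of each gene between the lines, which is given as an SD for the 9 genes. The comparison asks how the transcriptome of glioblastoma cells differs after *HOTAIRM1* knock-down.

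*HOTAIRM1* itself was lower in all 3 siHOTAIRM1 libraries (limma adjusted p = 0.0146). It was at 0.952 against 1.99 CPM in LN-229, 2.15 against 3.49 CPM in T98G and 0.623 against 1.27 CPM in U251. These were partial falls of 52.2%, 38.5% and 51.1%, on counts between 63 and 241 reads per library. The paper reports a larger knock-down in these lines, measured by qRT-PCR. The depth, estimated from the worth of 1 read, was 52.3 to 104 M reads per library, and the listed genes held 42.9% to 67.2% of the CPM of a library. This share was highest in the U251 siControl library, where the small cytoplasmic RNA gene *RN7SL1* reached 60589 CPM against 27894 CPM in the U251 siHOTAIRM1 library and 11862 to 21047 CPM in the other 4. On the log2(CPM + 1) scale, the change of the median tested gene was 0.01 for LN-229, -0.19 for T98G and -0.03 for U251, so a typical gene was lower in the T98G siHOTAIRM1 library. Of the markers checked, the mesenchymal genes *VIM* and *CD44* were high in every library, at 254 CPM or more. The astrocytic marker *GFAP* had a mean of 31.6 CPM in U251 but 0.308 CPM in LN-229 and 0.0493 CPM in T98G. In T98G, *SOX2* and *S100B* were also at or near 0. *S100B* was highest in LN-229, with a mean of 22.9 CPM against 2.29 CPM in U251. *SOX2* had means of 8.37 CPM in LN-229 and 104 CPM in U251. Of the other glioma markers, *NES* had means of 364, 0.911 and 418 CPM in LN-229, T98G and U251, and *OLIG2* did not exceed 1.69 CPM. Of the 6 markers of other cells, *PTPRC* (leukocytes) did not exceed 0.0870 CPM, *PECAM1* (endothelium) 0.523 CPM and *EPCAM* (epithelium) 0.248 CPM, and every library held *KRT20* (epithelium) at 0.0001 CPM, the constant that the authors added to every value. *CD68*, a lysosomal protein gene used as a macrophage marker, was above 3 reads in all 6 libraries with means of 0.793, 5.26 and 0.690 CPM in LN-229, T98G and U251, and *CDH5* (endothelium) had a mean of 2.07 CPM in U251.

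TGF-beta and BMP ligands bind pairs of serine/threonine kinase receptors, which phosphorylate SMAD2 and SMAD3 (TGF-beta and activin) or SMAD1, SMAD5 and SMAD9 (BMP). These enter the nucleus with SMAD4 and bind GC-rich or CAGAC-containing DNA beside target genes. *ID1*, *ID2* and *ID3* encode inhibitors of DNA binding, helix-loop-helix proteins that keep differentiation factors off DNA, and they are classical BMP targets that are used as markers of stem-like cells in glioblastoma. *SMAD6* and *SMAD7* encode the inhibitory SMADs, induced by the pathway and acting back on it. *TGFB1* and *TGFB2* encode ligands, *TGFBI* encodes a secreted matrix protein induced by TGF-beta, and *THBS1* encodes thrombospondin-1, a matrix glycoprotein that can activate latent TGF-beta.

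The promoters of the 4 genes whose level moved in 1 direction in all 3 cell lines are shown because their members moved together, *ID1* and *ID2* downwards and *SMAD6* and *TGFB1* upwards. Each sequence is the 250 bases before the RefSeq start on GRCh38.p14, 5′ to 3′ on the strand of the gene, in lower case, with matches to the motifs GGCGCC (a BMP-type SMAD element), GTCTAGAC (the palindromic SMAD element) and CAGAC, searched on both strands, in capitals. The windows are chr20:31605039-31605288 on the plus strand for *ID1*, chr2:8681806-8682055 on the plus strand for *ID2*, chr15:66701986-66702235 on the plus strand for *SMAD6* and chr19:41353923-41354172 on the minus strand for *TGFB1*.
ID1: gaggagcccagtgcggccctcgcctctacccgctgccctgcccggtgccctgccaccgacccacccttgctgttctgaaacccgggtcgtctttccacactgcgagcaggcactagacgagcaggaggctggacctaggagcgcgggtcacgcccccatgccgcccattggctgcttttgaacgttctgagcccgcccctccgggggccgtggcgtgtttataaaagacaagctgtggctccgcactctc
ID2: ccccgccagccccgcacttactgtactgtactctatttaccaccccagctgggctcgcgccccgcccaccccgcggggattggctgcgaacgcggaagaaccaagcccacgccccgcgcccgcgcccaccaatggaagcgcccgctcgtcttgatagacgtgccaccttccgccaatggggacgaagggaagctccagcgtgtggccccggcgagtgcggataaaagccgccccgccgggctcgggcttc
SMAD6: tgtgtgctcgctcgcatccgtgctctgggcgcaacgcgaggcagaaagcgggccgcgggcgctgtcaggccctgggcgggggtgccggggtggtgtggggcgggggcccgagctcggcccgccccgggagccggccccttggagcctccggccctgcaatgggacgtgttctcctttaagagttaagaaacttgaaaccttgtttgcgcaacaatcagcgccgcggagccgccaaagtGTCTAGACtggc
TGFB1: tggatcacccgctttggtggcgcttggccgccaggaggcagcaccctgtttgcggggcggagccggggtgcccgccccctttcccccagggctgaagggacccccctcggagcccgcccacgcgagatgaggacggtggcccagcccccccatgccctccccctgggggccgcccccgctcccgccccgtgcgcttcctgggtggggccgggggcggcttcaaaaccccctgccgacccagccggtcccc

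In the *ID1*, *ID2* and *TGFB1* windows none of the 3 motifs matched. The *SMAD6* window held GTCTAGAC from 12 bases before the start, a match present in 0.182% of the 35116 RefSeq windows of the same length, against 16.4% for GGCGCC, and CAGAC was in 13345 of these windows. Of the other genes, *TGFBI* had GGCGCC in its window, from 111 bases before the start, and *ID3*, *SMAD7*, *TGFB2* and *THBS1* had CAGAC. GTCTAGAC holds no CAGAC and no GGCGCC, so the matches do not overlap. A match describes these letters only, and a window without a match says nothing of binding further away.

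After *HOTAIRM1* knock-down, *ID1* and *ID2* fell over the 3 cell lines and none of the other 7 genes passed the test. Over the 3 lines the change of log2(CPM + 1) was -0.60 for *ID1* and -0.75 for *ID2*, and both were lower in 3 of 3 lines, but each call held under only 4 of the 12 alternatives tried. In these bulk libraries, fewer cells that express a gene and less of its RNA per cell cannot be told apart. The 2 genes called compare with 2.0% of all genes tested that were called in either direction, 1.59% that were lower and 0.413% that were higher. The median change of the 9 genes was 0.02, against -0.07 for all genes tested, and 4 of the 9 had an unadjusted p under 0.05, as had 18.3% of all genes tested. The 9 genes were chosen with earlier results of these data known, so setting them beside all genes is a description.

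**Figure D1:**
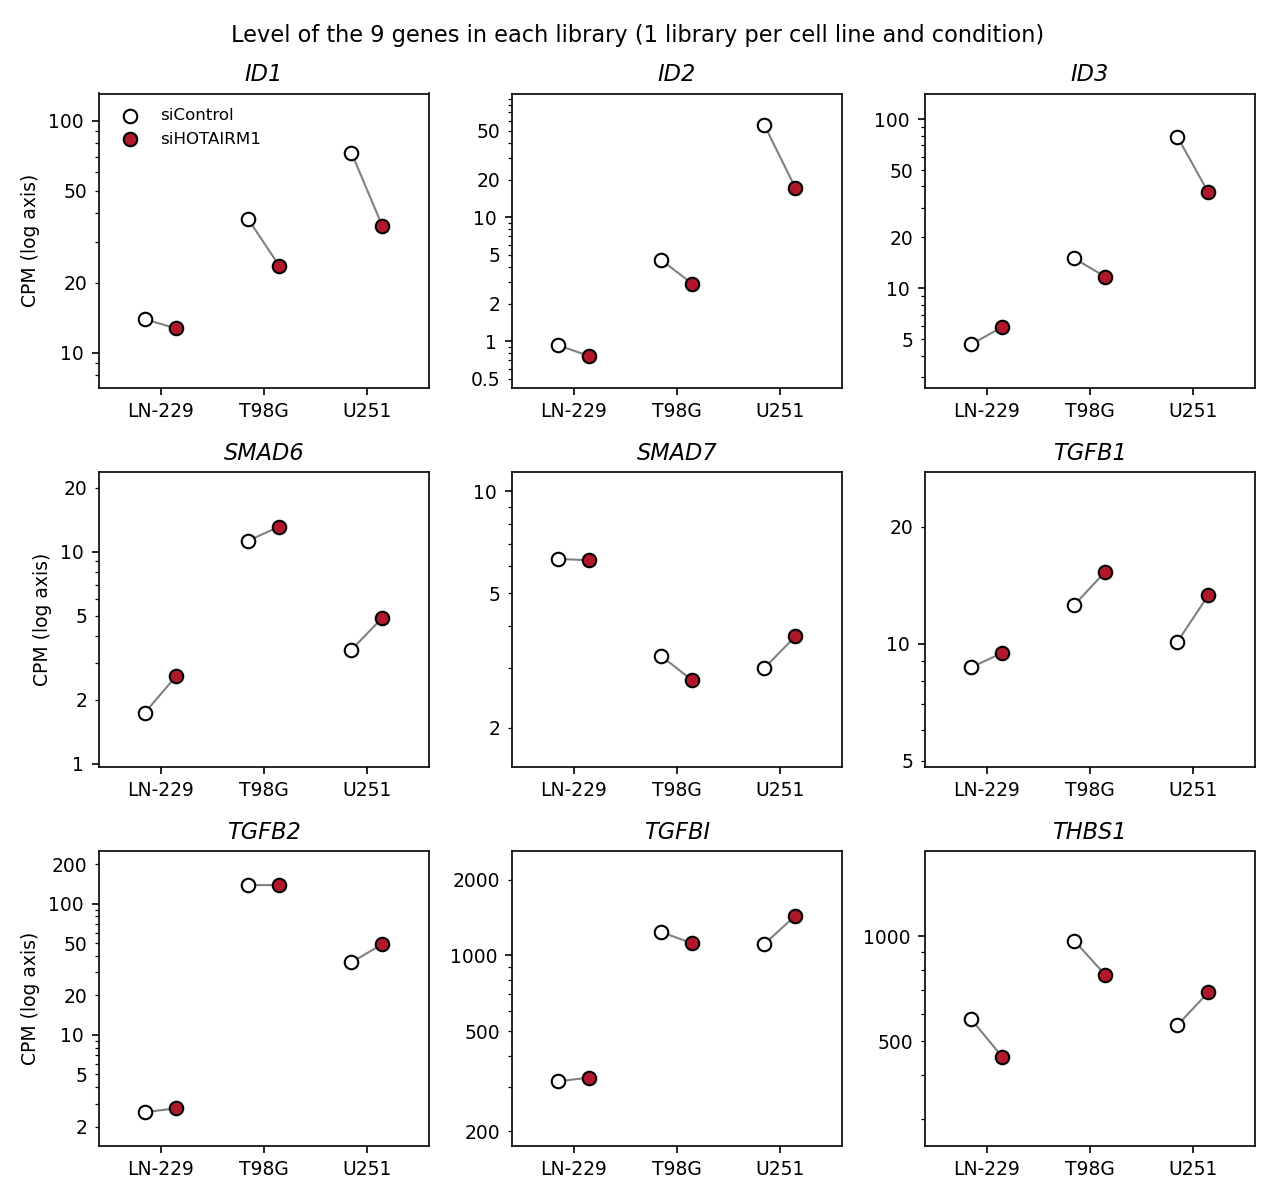
Level of each of the 9 genes in CPM, on log axes that differ between panels, by cell line, with the siControl library as an open circle and the siHOTAIRM1 library as a filled circle joined to it. The *ID* genes step up from LN-229 to T98G to U251 and fall most in U251, where *ID2* goes from 55.3 to 17.3 CPM, while *SMAD6* and *TGFB1* are higher in all 3 siHOTAIRM1 libraries.

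*ID1* lies on chr20:31605283-31606515 of hg38, on the plus strand. Its level was 13.9 CPM in siControl and 12.7 CPM in siHOTAIRM1 cells of LN-229, 37.6 and 23.7 CPM in T98G, and 72.8 and 35.2 CPM in U251. All 3 siHOTAIRM1 libraries were below their own siControl, by little in LN-229 and by most in U251. The changes were -0.12, -0.64 and -1.03 on the log2(CPM + 1) scale, with a mean of -0.60 (SD 0.46 over the 3 lines, limma SE 0.15, limma adjusted p = 0.0323). The SE comes from the shared spread and is smaller than the gene's own SD over 3 lines would give, for *ID1*, *ID2* and *ID3*. As a share of the siControl level, *ID1* was lower by 8.67%, 36.9% and 51.7% in LN-229, T98G and U251.

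*ID2*, on chr2:8678845-8684461 and the plus strand, had the largest mean change of the 9 genes. It was at 0.929 and 0.760 CPM in LN-229, the lowest levels of any of the 9 genes, at 4.52 and 2.92 CPM in T98G and at 55.3 and 17.3 CPM in U251. The change was -0.13, -0.49 and -1.62 in these lines, with a mean of -0.75 (SD 0.78, limma SE 0.18, limma adjusted p = 0.0193). In LN-229, where *ID2* had 82 and 79 reads, the 95% counting interval of the log2 ratio ran from -0.74 to 0.16, so a difference was not detectable there at this depth. The antisense gene *ID2-AS1* did not exceed 0.208 CPM. In T98G the interval was -0.88 to -0.38 and in U251 -1.76 to -1.59. The T98G change was smaller in size with other scalings. It was -0.31 relative to the median gene, -0.36 rescaled to the listed genes and -0.34 rescaled to the protein-coding genes. The U251 siHOTAIRM1 library had 0.313 of the siControl level, and 14 of the 14294 tested genes had a lower change in U251.

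*ID3*, on chr1:23557926-23559501 and the minus strand, did not move in 1 direction. It was at 4.66 CPM in siControl and 5.90 CPM in siHOTAIRM1 cells of LN-229, at 15.03 and 11.7 CPM in T98G and at 78.8 and 36.9 CPM in U251. The U251 siControl level was the highest of the 6 and the 2 LN-229 levels were the lowest. The change was 0.29, -0.33 and -1.07 in these lines. The mean of -0.37 did not pass the test (SD 0.68, SE 0.17, limma adjusted p = 0.232). The counting interval lay above 0 in LN-229 (0.16 to 0.52) and below 0 in T98G (-0.49 to -0.23) and U251 (-1.16 to -1.03). The T98G change of -0.33 was -0.14 relative to the median gene, -0.13 rescaled to the listed genes and -0.096 rescaled to the protein-coding genes. The size of the fall in T98G thus depended on the scaling.

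In *ID1*, *ID2* and *ID3* the change was ordered as the siControl level was. The line with the highest siControl level, U251, had the largest fall. LN-229 had the lowest level and the smallest fall or, for *ID3*, a rise. This order over 3 lines is a description. The siControl level is also part of the change, and log2(CPM + 1) understates changes of low genes, so the 2 are not independent. In U251, where 18.4% of all genes tested changed by 0.5 or more in size, all 3 *ID* genes and no other of the 9 did so as measured. There 201 tested genes had a lower change than *ID1*, 154 than *ID3* and 14 than *ID2*. This limit to the *ID* genes turned with the scaling. Rescaled to the listed genes, *SMAD6* (0.67), *TGFBI* (0.64), *TGFB1* (0.63), *TGFB2* (0.72) and *THBS1* (0.58) also passed 0.5 in U251, upwards. Rescaled to the protein-coding genes, *SMAD6* (0.55) and *TGFB2* (0.56) did. In T98G, where 8.90% of all genes changed that much, *ID1* did, and 348 genes had a lower change. That change, -0.64, was -0.45 relative to the median gene, -0.43 rescaled to the listed genes and -0.40 rescaled to the protein-coding genes, short of 0.5 each time. *TGFB1* in T98G reached 0.53 when rescaled to the protein-coding genes. In LN-229, where 2.46% did, none of the 9 genes did. These changes within a line come from 1 library per condition and have no replicate check.

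**Figure D2:**
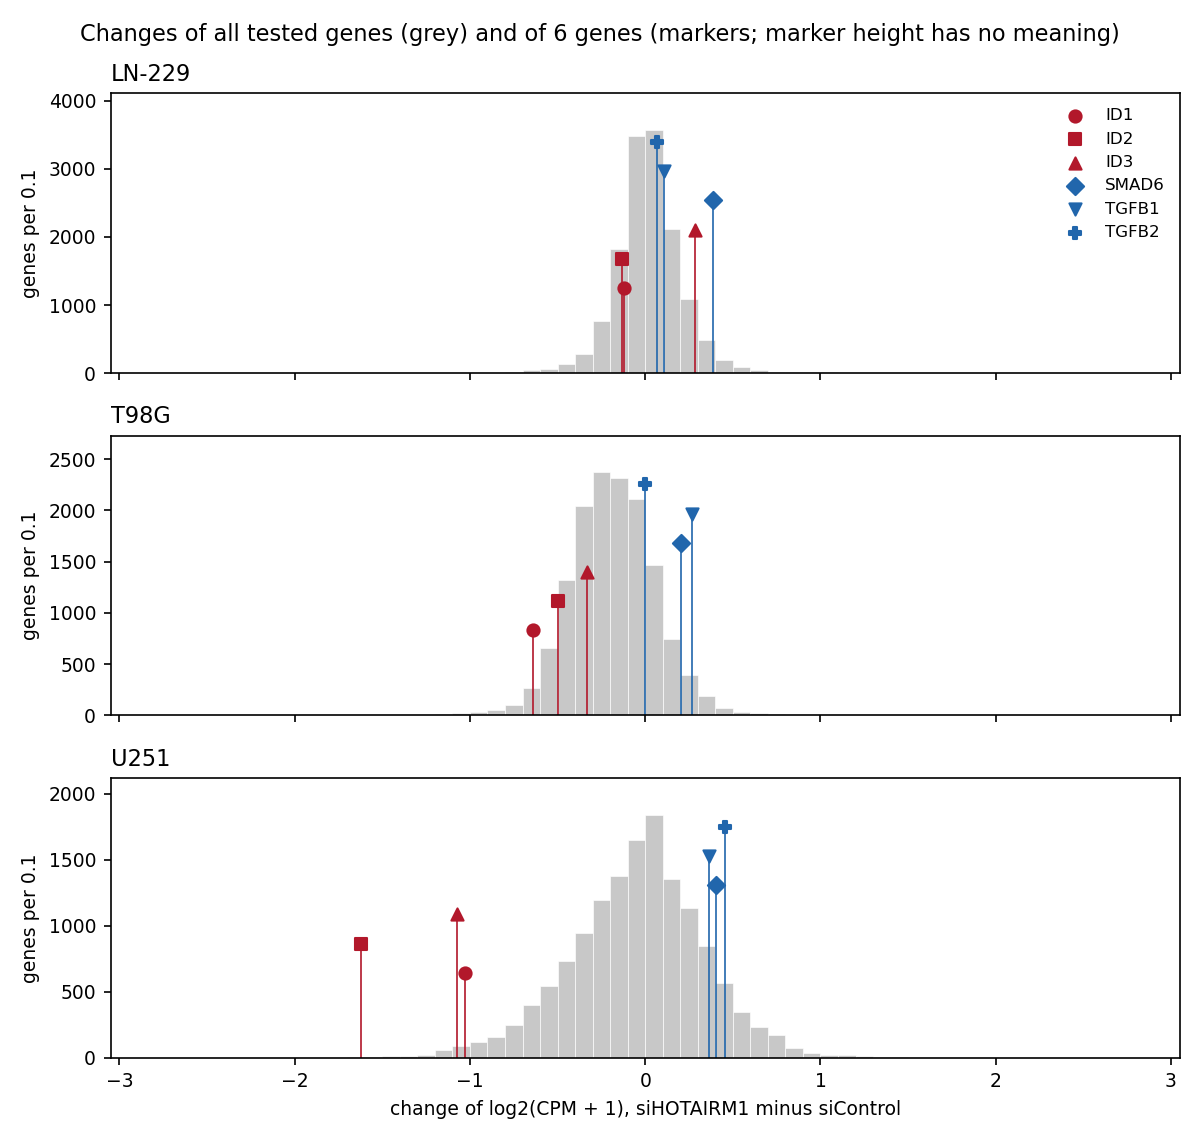
Number of tested genes per 0.1 of change, log2(CPM + 1), siHOTAIRM1 minus siControl, in each cell line (grey bars, the outermost bars holding all genes beyond them), with the changes of *ID1*, *ID2*, *ID3*, *SMAD6*, *TGFB1* and *TGFB2* as markers whose height has no meaning. In U251 the 3 *ID* genes lie between -1.62 and -1.03, at the lower edge of the distribution, and in LN-229 they lie between -0.13 and 0.29.

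The calls of *ID1* and *ID2* depended on the scaling and on single cell lines, while their direction was lower under all 12 alternatives tried. With each library centred on its median the adjusted p was 0.178 for *ID1* and 0.217 for *ID2*, with each rescaled to its listed genes 0.244 and 0.252, and with the trend of the change with transcript length removed 0.159 and 0.213. Over all tested genes the change went with transcript length in T98G and U251 (Spearman rho across genes of 0.237 and 0.310) but not in LN-229 (-0.0251), so shorter transcripts were lower in the 2 lines where all 3 *ID* genes were lower, and the *ID* transcripts, of 0.950 to 1.30 kb, are the shortest of the 9. With this trend removed the changes over the lines were -0.43 for *ID1*, -0.60 for *ID2* and -0.20 for *ID3*. Without T98G both were 0.581, and without U251 the changes were -0.38 and -0.31 with adjusted p of 0.618 and 0.510 (limma). In U251 the changes relative to the median gene were -1.002 for *ID1*, -1.59 for *ID2* and -1.05 for *ID3*, and after rescaling to the listed genes -0.78, -1.38 and -0.82. Rescaled to the protein-coding genes, a choice made after seeing the data, they were -0.94, -1.55 and -0.98, so the 3 genes were lower in U251 under each of these scalings. The high *RN7SL1* level of the U251 siControl library moved with this result, and its part in it was not tested further.

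Of the inhibitory SMADs, *SMAD6* (chr15:66702236-66782849, plus strand) was higher in all 3 siHOTAIRM1 libraries. It went from 1.74 to 2.59 CPM in LN-229, from 11.3 to 13.1 CPM in T98G and from 3.44 to 4.88 CPM in U251. The changes of 0.39, 0.20 and 0.40 on the log2(CPM + 1) scale had the smallest SD of the 9 genes, 0.11, and each counting interval lay above 0. The mean of 0.33 did not pass the test (SE 0.14, unadjusted p = 0.0244, limma adjusted p = 0.198). For *SMAD6* the SE from the shared spread is larger than the gene's own SD over 3 lines would give. The mean was 0.29 to 0.51 and short of the threshold under every alternative.

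*SMAD7* (chr18:48919853-48950965, minus strand), which acts on both the TGF-beta and the BMP branch, had no common direction. Its level was 6.31 and 6.25 CPM in LN-229, 3.26 and 2.76 CPM in T98G and 3.005 and 3.73 CPM in U251. The mean change was 0.02 (SD 0.21, SE 0.14, limma adjusted p = 0.968). The counting intervals of LN-229 (-0.18 to 0.15) and T98G (-0.51 to 0.04) included 0 and that of U251 (0.04 to 0.58) did not.

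Of the ligands, *TGFB1* (chr19:41301587-41353922, minus strand) was higher in all 3 siHOTAIRM1 libraries. Its level was 8.69 and 9.46 CPM in LN-229, 12.6 and 15.3 CPM in T98G and 10.1 and 13.3 CPM in U251. The changes were 0.11, 0.26 and 0.37, and the mean of 0.25 did not pass the test (SD 0.13, SE 0.14, limma adjusted p = 0.360). In LN-229 the counting interval of the log2 ratio ran from -0.01 to 0.26, so a difference was not detectable there at this depth. The intervals of T98G (0.16 to 0.41) and U251 (0.25 to 0.54) lay above 0. The gene span overlaps *HNRNPUL1* (up to 94.0 CPM), *CCDC97* (up to 7.45 CPM) and *TMEM91* (up to 1.04 CPM) on the other strand. Of these *TMEM91* reaches the canonical transcript of GENCODE, while the authors quantified on all transcripts of Ensembl, so the *TGFB1* level is uncertain where reads could be split, and reads of the 2 strands cannot be told apart with a library kit that does not mark strand.

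*TGFB2* (chr1:218345336-218444619, plus strand) differed between the lines far more than between the conditions. It was at 2.58 and 2.76 CPM in LN-229, at 138.4 and 138.1 CPM in T98G and at 35.7 and 49.2 CPM in U251. In T98G, with 9559 and 10043 reads, the counting interval of the log2 ratio ran from -0.04 to 0.04, but the change was 0.19 relative to the median gene, 0.22 rescaled to the listed genes and 0.26 rescaled to the protein-coding genes, so it turned with the scaling. The change was 0.45 in U251, with an interval of 0.39 to 0.54 for the ratio. The mean over the lines was 0.17 (SD 0.24, SE 0.14, limma adjusted p = 0.540). The antisense gene *TGFB2-AS1* did not exceed 0.275 CPM.

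The matrix genes were the most abundant of the 9. *TGFBI* (chr5:136028988-136063818, plus strand) was at 316 and 327 CPM in LN-229, at 1237 and 1117 CPM in T98G and at 1111 and 1437 CPM in U251. Its changes were 0.05, -0.15 and 0.37, with a mean of 0.09 (SD 0.26, SE 0.21, limma adjusted p = 0.862). The T98G change was 0.04 relative to the median gene of that line and 0.08 after rescaling to the listed genes. The direction of *TGFBI* in T98G thus turned with the scaling.

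*THBS1* (chr15:39581079-39599466, plus strand) went in opposite directions, from 580 to 453 CPM in LN-229 and from 972 to 776 CPM in T98G, but from 556 to 692 CPM in U251. The changes were -0.36, -0.32 and 0.31, all with counting intervals away from 0, since each library had 29069 reads of *THBS1* or more. The T98G change was -0.13 relative to the median gene and -0.097 rescaled to the listed genes. The mean was -0.12 (SD 0.38, SE 0.21, limma adjusted p = 0.799). The gene *FSIP1*, which overlaps *THBS1* on the other strand, did not exceed 2.66 CPM. In LN-229, 366 tested genes had a lower change than *THBS1*, while in T98G 3998 did.

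**Figure D3:**
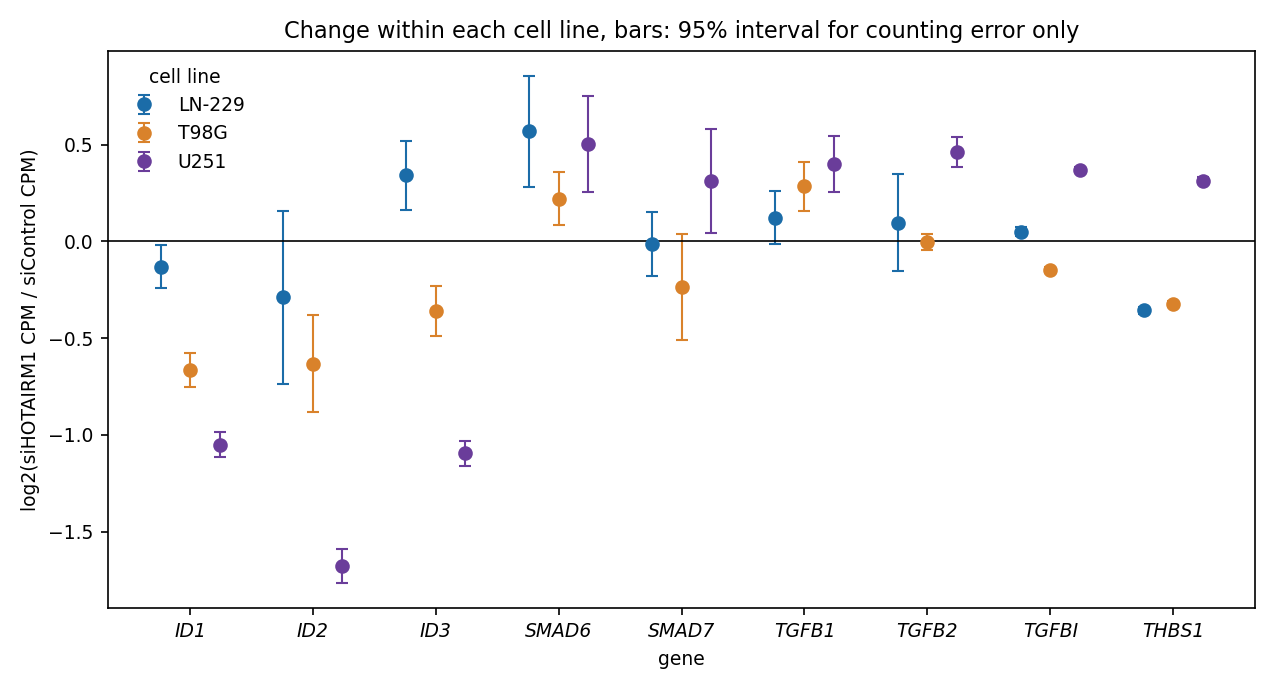
Log2 ratio of siHOTAIRM1 to siControl CPM for each gene and cell line, with bars for the 95% interval that covers counting error only and not the spread between libraries. *ID1* and *ID2* lie below 0 in all 3 lines and *SMAD6* above 0 in all 3, but the interval of *ID2* in LN-229 crosses 0. *ID3* and *THBS1* take both signs with intervals away from 0.

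The levels of the 9 genes differed widely between the cell lines. In T98G against LN-229, 9 of the 9 genes passed the test, 8 higher and *SMAD7* lower, where 54.9% of all genes tested passed. In U251 against LN-229, 7 of the 9 passed, 6 higher and *SMAD7* lower, where 60.6% of all genes did. In U251 against T98G, 5 of the 9 passed, *ID1*, *ID2* and *ID3* higher and *SMAD6* and *TGFB2* lower, where 64.2% of all genes did. The lines were compared over both of their libraries with the condition as a covariate, and these shares of all genes show how common such differences were. Each line had 1 library per condition, so its libraries are not replicates of a condition. The p-values between lines rest on the spread that is mostly shared across genes.

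The largest differences between lines were those of *TGFB2* and *ID2*. *TGFB2* was higher in T98G than in LN-229 by 5.25 and in U251 than in LN-229 by 3.55 on the log2(CPM + 1) scale, and U251 minus T98G was -1.70 (SE 0.18 each, limma adjusted p of 5.24e-24, 3.87e-19 and 2.16e-10). *ID2* was higher in U251 than in LN-229 by 4.12 and than in T98G by 2.79, and higher in T98G than in LN-229 by 1.33 (SE 0.22 each, limma adjusted p of 2.38e-18, 1.60e-13 and 2.75e-06). *ID3* followed the same order, 3.14 higher in U251 than in LN-229 and 1.94 higher than in T98G (SE 0.21). None of the libraries of these 3 genes overlapped between lines.

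*ID1* had the same order as *ID2* and *ID3*, 1.11 higher in T98G than in LN-229 and 0.74 higher in U251 than in T98G (SE 0.19 each), but the U251 siHOTAIRM1 level of 35.2 CPM lay below the T98G siControl level of 37.6 CPM. The difference between U251 and T98G (limma adjusted p = 0.000868) was lost after rescaling to the listed genes (adjusted p = 0.0965), with no condition term (0.0824) and with no filter (0.0703). With no filter, T98G against LN-229 also lost *ID2* (0.0565), *ID3* (0.0541) and *THBS1* (0.124). *SMAD6* was ordered differently, highest in T98G, with T98G minus LN-229 at 2.07 and U251 minus T98G at -1.36 (SE 0.17 each). *SMAD7* was highest in LN-229, with T98G minus LN-229 at -0.86 and U251 minus LN-229 at -0.74 (SE 0.17 each). Its difference between U251 and T98G, 0.12, did not pass the test (limma adjusted p = 0.559).

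*TGFBI* was higher by 1.87 in T98G and 1.97 in U251 than in LN-229 (SE 0.26 each). Its difference between U251 and T98G, 0.10, did not pass the test (limma adjusted p = 0.749). *TGFB1* and *THBS1* spanned the narrowest ranges, with highest over lowest level of 1.76 and 2.15 over the 6 libraries, against 72.7 for *ID2* and 53.6 for *TGFB2*. *TGFB1* was higher in T98G than in LN-229 by 0.56 and *THBS1* by 0.76 (limma adjusted p of 0.00689 and 0.0122). Against T98G, both were lower in U251 without passing the test (adjusted p of 0.238 and 0.0972) and passed it with libraries centred on the median (0.0201 and 0.0162).

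Per kilobase of the GENCODE canonical transcript, *TGFBI* was the highest of the 9 genes in all 6 libraries, from 117 to 530 CPM per kb. *THBS1* followed at 58.1 to 125 CPM per kb, except that *ID3*, at 82.9 CPM per kb, and *ID1*, at 74.1 CPM per kb, exceeded its 71.4 CPM per kb in U251 siControl cells. After knock-down in U251, *ID1* and *ID3* were at 35.8 and 38.8 CPM per kb and *THBS1* at 88.8 CPM per kb. *SMAD6* and *SMAD7* stayed between 0.456 and 3.43 CPM per kb.

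Across the 6 libraries the levels of the *ID* genes had a Pearson r of log2(CPM + 1) of 0.994 for *ID2* and *ID3*, 0.946 for *ID1* and *ID3* and 0.941 for *ID1* and *ID2*. *SMAD6* went with *TGFB2* (r = 0.917) and *SMAD7* against it (r = -0.945). The 6 points are 3 pairs of libraries of 1 line each, so these values describe mostly the lines. Of all tested genes outside the 9, the one most like *ID1* was *APOO* (r = 0.999), *PECR* for *ID2* (0.998), *FAM187A* for *ID3* (0.9999), *IGFBP5* for *SMAD6* (0.998), *ACSL3* for *SMAD7* (0.999) and *PDZD2* for *TGFBI* (0.999). *MALAT1* was most like *TGFB1* (0.986), *RP1-152L7.5* most like *TGFB2* (0.9997) and *RP4-555D20.2* most like *THBS1* (0.994). *APOO*, *PECR* and *FAM187A* had changes on knock-down of -0.28, -0.13 and -0.22, none past the test.

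Of the other pathway genes reported, 2 passed the test. From 106 further symbols of ligands, receptors, SMADs, latency proteins, antagonists and targets, 74 were tested, and of these 1 was higher and 1 was lower after knock-down, 2.70% beside 2.0% of all genes tested, a share near the background. With an unadjusted p under 0.05 there were 4 of the 74 (5.41%), beside 18.3% of all genes. The median change of the 74 was -0.01, against -0.07 for all genes tested, and 15 were lower and 10 higher in all 3 lines.

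*POSTN*, which encodes the matrix protein periostin and stood in a list of 17 tested TGF-beta targets, rose from 2.71 to 3.55 CPM in LN-229, from 2.03 to 7.81 CPM in T98G and from 0.191 to 0.731 CPM in U251. Its changes were 0.30, 1.54 and 0.54 in these lines, with a mean of 0.79 (SE 0.16, limma adjusted p = 0.00386). The SE comes from the shared spread and is smaller than the spread of these 3 changes would give. The other 16 targets did not pass, with the transcription factor *SNAI2* at -0.51 and fibronectin, *FN1*, at 0.38 (adjusted p of 0.0660 and 0.312).

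*INHBA*, the activin A subunit, was the 1 gene called among 9 tested ligands. It fell from 86.4 to 42.5 CPM in LN-229, from 8.57 to 4.80 CPM in T98G and from 4.55 to 3.66 CPM in U251. The changes were -1.01, -0.72 and -0.25 (mean -0.66, SE 0.15, limma adjusted p = 0.0149). Here too the SE is smaller than the spread of these changes would give. The siControl level and the fall of *INHBA* were largest in LN-229, where *ID1* and *ID2* changed least. *GDF11* (0.28) and *BMP8B* (-0.20) did not pass.

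None of the 14 receptors and co-receptors, 6 signal-carrying SMADs, 8 latency genes, 14 antagonists and inhibitors and 6 other BMP targets tested were called by limma, with 1, 0, 0, 0 and 0 at an unadjusted p under 0.05. The type II receptor *TGFBR2* was at 52.6 and 42.7 CPM in LN-229, at 59.0 and 54.4 CPM in T98G and at 102 and 49.4 CPM in U251 (mean change -0.48, limma adjusted p = 0.0965), with a change of -1.03 in U251. The co-receptor *TGFBR3* changed by 0.29, the BMP-type *SMAD9* by 0.24 and *SMAD5* by -0.14, the latent TGF-beta activating integrin subunit *ITGB8* by 0.27, the latency protein *LTBP1* by -0.23, the antagonist *NBL1* by 0.23 and the activin-binding *FSTL3* by -0.24, all short of the threshold. The fourth *ID* gene, *ID4*, which stood in the list of other BMP targets, was at 5.80 and 5.41 CPM in LN-229, at 0.188 and 0.275 CPM in T98G and at 13.2 and 7.82 CPM in U251, with a mean change of -0.22 (limma adjusted p = 0.426), and *HEY1*, a transcriptional repressor in the same list, had 0.17.

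**Figure D4:**
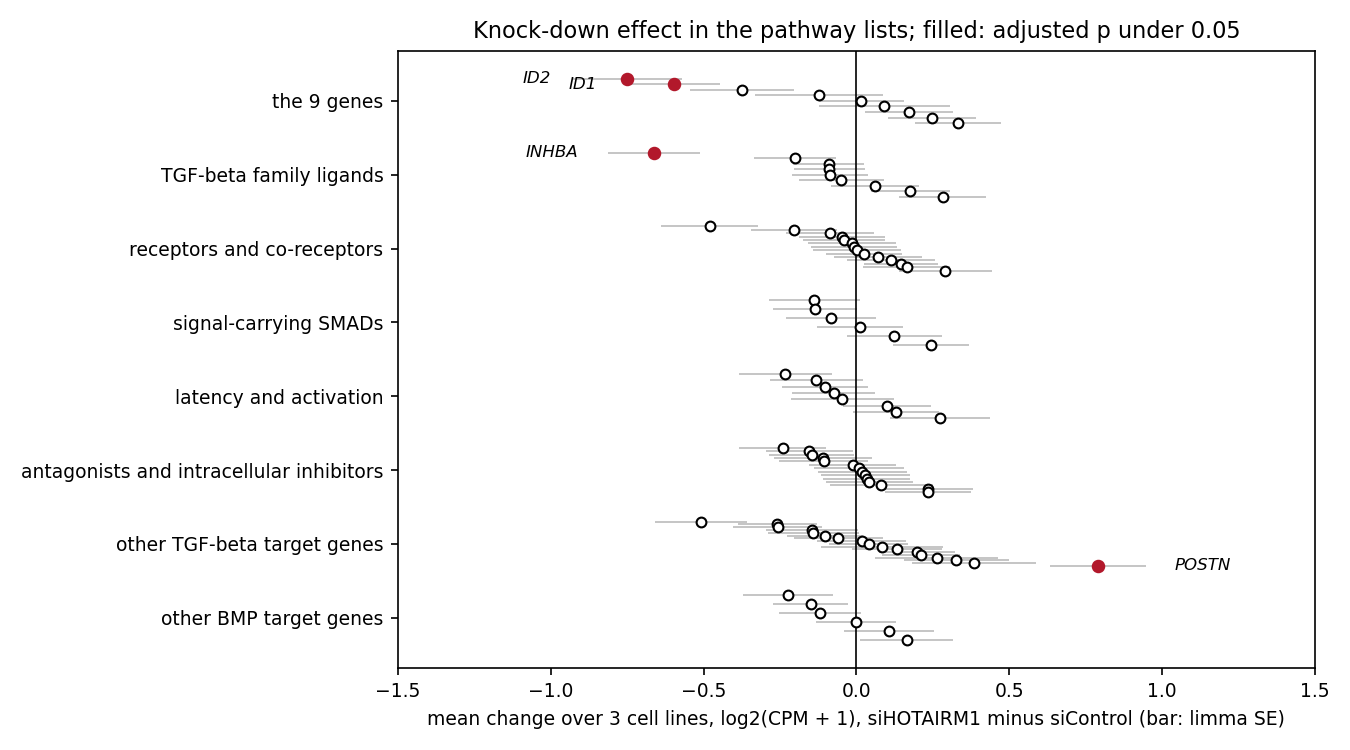
Mean change over the 3 cell lines of log2(CPM + 1), siHOTAIRM1 minus siControl, with the limma SE as a bar, for the 9 genes and for the 74 tested genes of the pathway lists, 1 circle per gene, ordered by change within a list. Filled circles are genes with an adjusted p under 0.05, which are *ID1*, *ID2* and *INHBA* below 0 and *POSTN* above 0.

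The calls of *INHBA* and *POSTN* also depended on the scaling. Centred on the median they had an adjusted p of 0.175 and 0.178, and rescaled to the listed genes 0.252 and 0.190 (limma). Leaving out T98G gave 0.581 for both, and *INHBA* was also lost without LN-229 (0.176).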

How the data were processed

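RNA sequencing covered siControl and siHOTAIRM1 transfected LN-229 (LNT229 in the sample titles), T98G and U251 cells, 1 library each. Per the study's methods, the authors made libraries from 500 ng of total RNA (TruSeq v2, 101 cycles), trimmed 13 bases at the 5′ and 1 at the 3′ end, aligned to hg38 with STAR 2.4.1d and then Bowtie 2 2.2.5, and quantified on Ensembl release 84 in Partek Flow by Expectation-Maximization. This kit is generally known not to mark strand, which the methods do not state. The authors deposited CPM values, with 0.0001 added to each. Step sizes between low values gave the worth of 1 read. Of the low values, 91.0% to 92.0% were whole reads within 0.1 read, too few for a count test. A level of 3 reads was 0.0289 to 0.0574 CPM. Intervals cover counting error only (95%).

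Values were tested as log2(CPM + 1), which understates changes of low genes, with limma 3.58.1 (R 4.3.3), a mean-variance trend and cell line as a blocking term. P-values were adjusted by Benjamini-Hochberg over the 14294 genes averaging 1 CPM or more, threshold 0.05. The spread rested on 2 residual and 32.5 prior degrees of freedom, so it was mostly shared across genes. The same fit gave the contrasts between lines. Replicate numbers stand for cell lines, and libraries of 1 line deviated together from the condition means (r of 0.948 to 0.967), which pairs them. Within a line no test was possible. The script was tested on simulated data.

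The 9 genes, the pathway lists and the tests were chosen with earlier results of these data known. Named beside the 9 were genes past the threshold in each pathway list, the 2 largest others per list, the most similar gene (Pearson) and overlapping genes. 2 genes of the pathway lists, fitted with all others, are not reported here, and the counts and medians of the lists leave them out. Lengths came from GENCODE 44 (86.3% of tested genes, matched by symbol) and promoters from RefSeq (9 of 9 genes matched). These steps ran in Python 3.11.15 (pandas 2.3.3, numpy 2.4.6, matplotlib 3.10.9). Alternatives were other scalings, pseudocounts and filters, no block, no trend, removal of the length trend and leaving out each line.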

Additional observations from a re-analysis of the deposited data

Results flagged for a closer look

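The change of *ID3* went in opposite directions in different cell lines. It was 0.29 in LN-229 and -0.33 in T98G on the log2(CPM + 1) scale, a difference of -0.62, and -1.07 in U251, a difference from LN-229 of -1.36. *THBS1* changed by -0.36 in LN-229 and -0.32 in T98G but by 0.31 in U251, differences of 0.67 from LN-229 and 0.64 from T98G. With 1 library per line and condition these differences were not tested. Relative to the median gene of each line, *ID3* was at 0.27, -0.14 and -1.05 and *THBS1* at -0.37, -0.13 and 0.34 in LN-229, T98G and U251.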

How the results depend on the processing

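Over the 3 lines, 286 of 14294 genes passed, 59 higher and 227 lower. Without the cell line as replicate block 0 genes passed, 0 of the 9 and 0 of the pathway genes (29, 0 and 0 at an unadjusted p under 0.05 by limma). With median centring 41 genes passed (15 higher and 26 lower), 0 of the 9 and 0 pathway genes. Rescaled to the listed genes 25, 0 and 0 passed, and rescaled to the protein-coding genes, added after seeing the data, 7, 0 and 0. With no filter 0, 0 and 0 passed, and with the length trend removed 60, 0 and 0. A pseudocount of 0.1 gave 683 genes, a mean of at least 5 CPM 607 genes, and no mean-variance trend 185 genes. Leaving out 1 line gave 0 to 270 genes, 0 to 2 of the 9 and 0 to 2 pathway genes. *ID1* and *ID2* stayed called without LN-229 and were lost without T98G (0 genes in all) or U251 (149 genes). Where 0 of the 9 passed, the count at an unadjusted p under 0.05 was 4 with centring, 5 with either rescaling, 2 with no filter, 4 with the length trend removed, 3 without T98G and 2 without U251. Where 0 genes passed it was 2520 with no filter and 1206 without T98G, and where 0 pathway genes passed it was 11 with centring, 13 and 14 with the 2 rescalings, 3 with no filter, 11 with the length trend removed and 8 without T98G. The main count of pathway genes was 2, and 1 without LN-229. *ID1* and *ID2* passed under 4 of 12 alternatives each, and none of the other 7 genes passed under any. The cause of these differences was not tested, except that each left-out line leaves fewer samples.

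Directions that turned were those of *THBS1* after knock-down with rescaling to the listed genes (0.027), *SMAD7* (leave-one-out range -0.095 to 0.114) and *TGFBI* (-0.048 to 0.210), none past the test. Within T98G, which has no test, *TGFB2* and *TGFBI* turned upwards with each scaling, and *SMAD7* with centring and with rescaling to the protein-coding genes. Between lines, *TGFB1* and *THBS1* in U251 against LN-229 turned with rescaling to the listed genes (-0.0026 and -0.084). In U251 against T98G, *SMAD7* and *TGFBI* turned with median centring (-0.093 and -0.109) and with rescaling to the listed genes (-0.21 and -0.30). Over all genes, the calls in U251 against T98G were 5866 higher and 3304 lower, but 4641 and 4549 with centring and 3549 and 5141 with rescaling. In U251 against LN-229 they were 5243 and 3421, 4589 and 4285, and 3213 and 5231. The counts of the 9 genes passing between lines stayed within 1.5 times, and *SMAD7* was not tested at a mean of at least 5 CPM. Depth limited *ID2* in LN-229, with 79 and 82 reads.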
